A study of Mus musculus with 4 samples.

Results

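The genes described here are 10 genes of the Toll-like receptor pathway and of the NF-kB response that it drives: the receptor genes Tlr2 and Tlr4, the co-receptor genes Cd14 and Ly96, the adaptor gene Myd88, the feedback genes Nfkbia, Nfkbiz and Tnfaip3, and the secreted targets Lcn2 and Saa3. They were chosen by name, through the gene name on the array or the symbol of the matching RefSeq transcript. All 10 were on the array, on 11 probes, out of 26793 gene names in all. Each gene was well above background on all 4 arrays by 1 probe. A second Tlr4 probe, for another transcript, was well above background on none.

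RNA came from IMS/N, a hepatic stellate cell line that was taken from normal livers of 129/Sv mice and made immortal by SV40 infection, so every culture, control included, was of SV40-infected cells. The 4 groups were cells given palmitic acid (PA) and medium in which adipose tissue-derived stem cells (ADSCs) had grown, cells given PA, cells given ADSC medium, and control cells given neither, with 1 one-colour Agilent array each. PA is a saturated fatty acid. The ADSCs came from the inguinal fat of male C57BL/6J mice 8 to 10 weeks old. The question was what products of ADSCs do to stellate cells given PA. Whether PA activated these cells was not tested. The dose and time of PA, and whether cells without ADSC medium received the same base medium, are not stated in the labels, so base medium and ADSC products cannot be told apart.

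Toll-like receptors are sensors of microbial molecules in immune cells and in some tissue cells, stellate cells among them. TLR4 binds bacterial lipopolysaccharide with MD-2, which Ly96 encodes, after CD14 has passed the lipid on, and TLR2 binds bacterial lipopeptides. MyD88 couples both receptors to the kinases that free NF-kB from its inhibitor IkB-alpha, the product of Nfkbia, and NF-kB then induces its own inhibitors along with secreted proteins such as lipocalin 2 and serum amyloid A3.

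Levels are log2 intensities after quantile normalization of the 4 arrays, and differences are on the same log2 scale unless a fold is given. With 1 array per group there is no test between conditions and no p-value. Errors come from the SD between spots on an array. They cover only the spread between spots within an array. Left out are differences between arrays, as from labelling and hybridization, and the spread between cultures. For Tlr2, Tlr4 and Myd88 they come from the 8 to 10 spots of the gene's own probe on each array. For the other genes, which have 1 spot, they come from 245 probes printed on 10 spots, in the same range of levels. Saa3 crosses the edge of a range at 5, so its SD was 0.09 on the arrays with PA and 0.16 on the others, and its errors depend on that edge. The error of a level is the SD of single spots. For differences of Tlr2, Tlr4 and Myd88 it is the standard error of the difference between spot means, smaller than that SD. For differences of the other genes it is the SD of a difference between single spots. A single spot had an SD of 0.047 at levels of 9 to 11 and of 0.163 at levels of 3 to 5. The 75th percentile of the processed signal before normalization was 542 with PA and ADSC medium, 622 with PA, 497 with ADSC medium and 495 in control, and no spot was saturated. A single slide and a single scan held all 4 arrays. The number of arrays limits the precision.

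The label of the cells was set against marker genes. Of 14 stellate cell or myofibroblast markers, 9 were well above background on all arrays, including Acta2, Col1a1, Pdgfrb and Lhx2, while Lrat, Reln, Hgf, Hand2 and Rgs5 were on none. The macrophage markers Adgre1, Ptprc, Tyrobp and Clec4f were on none, although 8 of the 14 genes of that list passed on 1 array or more, Cd68 and Lyz2 among them. Of the neutrophil markers on the array, 2 of 8 were well above background.

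**Figure D1:**
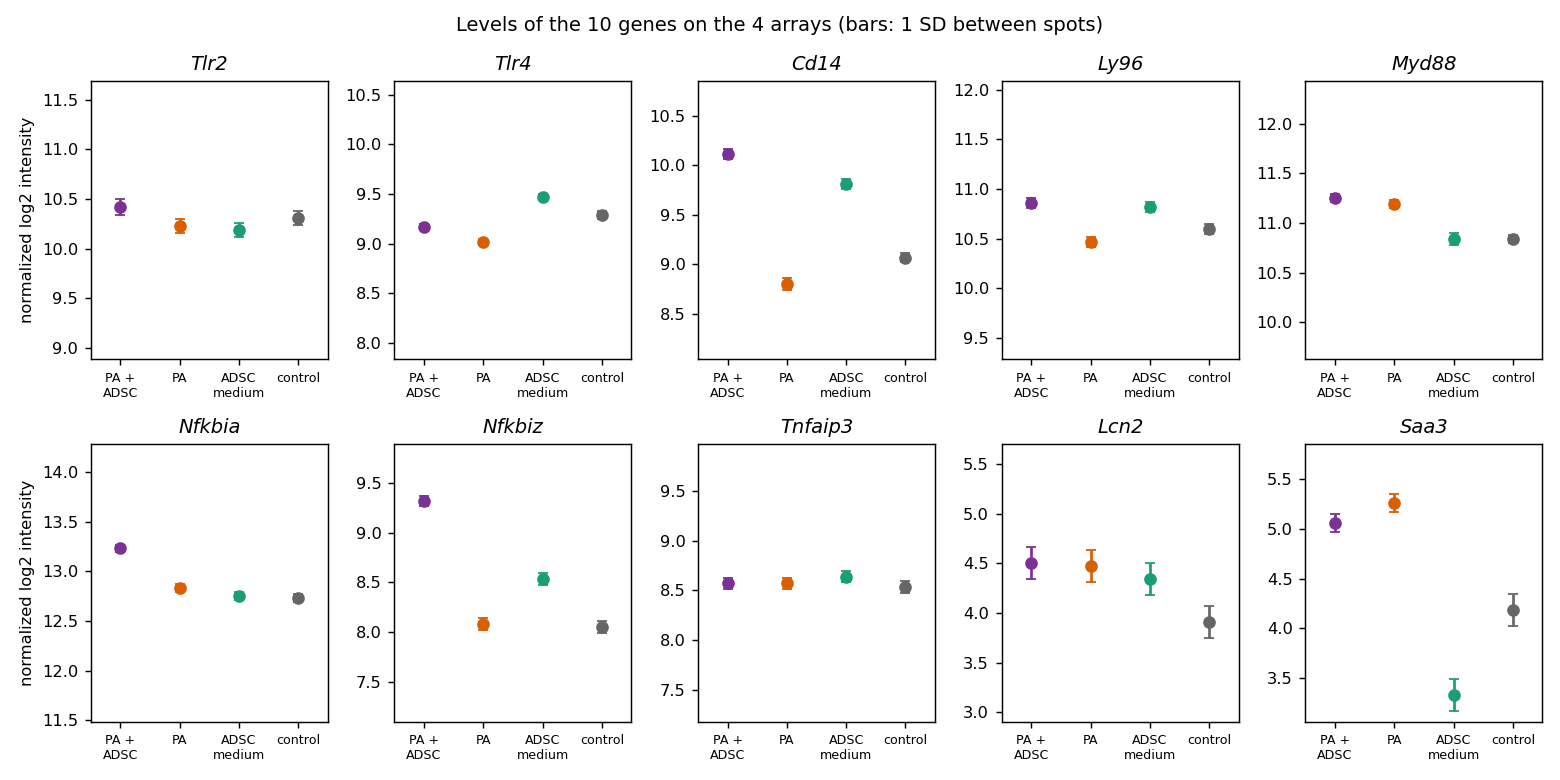
Normalized log2 intensity (vertical axis, the same span of log2 units in each panel) of the 10 genes on the arrays with PA and ADSC medium, PA, ADSC medium, and control. Points are the value of 1 array and bars 1 SD between spots; Cd14 and Nfkbiz are highest with both treatments and Saa3 is lowest with ADSC medium alone.

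The receptor genes differed little. Tlr2 (probe on chromosome 3, 83640344 to 83640403, mm9) stood at 10.42 ± 0.08 with PA and ADSC medium, 10.23 ± 0.07 with PA, 10.19 ± 0.07 with ADSC medium and 10.31 ± 0.07 in control (SD, n = 10 spots each). The whole span over the arrays was 0.23, less than 1.2-fold. Single spots of the highest array overlapped those of PA and of control. Each treatment alone left Tlr2 slightly lower than control, by -0.08 with PA and -0.12 with ADSC medium, whereas both together left it 0.11 higher. The neighbouring levels of PA and of ADSC medium, 0.04 apart, lay within 2 standard errors of their difference.

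Tlr4 (chromosome 4, 66503724 to 66503782) was at 9.17 ± 0.03 with PA and ADSC medium, 9.02 ± 0.03 with PA, 9.47 ± 0.03 with ADSC medium and 9.29 ± 0.04 in control (SD, n = 8 spots with ADSC medium and 10 on the others). It was lower with PA by a similar amount on both backgrounds, at -0.29 ± 0.02 in the presence of ADSC medium and -0.26 ± 0.02 in its absence. ADSC medium went with a higher level, by 0.15 ± 0.01 in the presence of PA and 0.18 ± 0.02 in its absence. The gaps between all neighbours in the order ADSC medium, control, both treatments and PA were larger than 2 standard errors. Even so, no pair differed by 1.5-fold. The spots with ADSC medium alone lay above those of every other array.

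**Figure D2:**
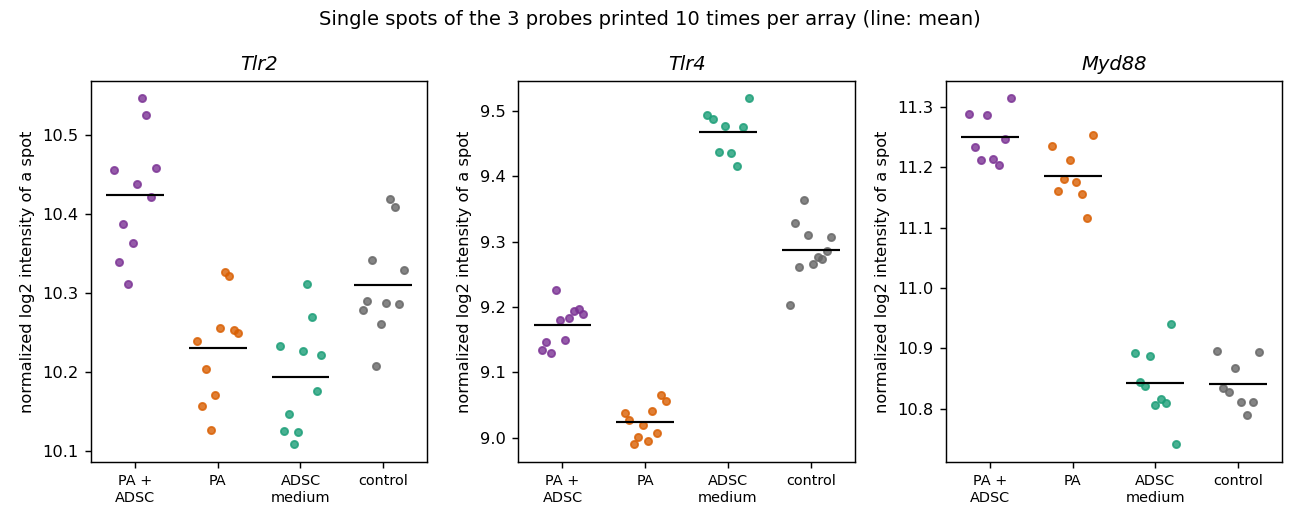
Normalized log2 intensity of each spot (vertical axis, a separate scale per panel) for the 3 genes whose probe was printed 10 times, by array, with the mean as a line; spots flagged as outliers are left out. Myd88 spots lie at 11.1 to 11.3 on the arrays with PA and at 10.7 to 10.9 on those without, and Tlr4 spots are lowest with PA alone.

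The co-receptor gene Cd14 showed one of the clearest differences. Its protein holds lipopolysaccharide at the cell surface and hands it to TLR4 and MD-2. Cd14 (chromosome 18, 36884969 to 36885028) was at 10.11 with PA and ADSC medium, 8.80 with PA, 9.81 with ADSC medium and 9.07 in control, which are processed signals of 1108, 522, 826 and 498 in that order. Both arrays with ADSC medium were above both without it. Added to PA, the medium went with a 2.48-fold higher level (1.31 ± 0.07), and without PA with a 1.66-fold higher one (0.73 ± 0.07). PA went with a slightly lower level alone (-0.27 ± 0.07) and a slightly higher one in the presence of ADSC medium (0.30 ± 0.07). All gaps between neighbours exceeded 2 SDs of the spots.

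Cd14 is also a marker of monocytes and macrophages. Of the 14 genes of the macrophage list, Csf1r, Cd68, Lyz2, Cd5l, Marco and C1qb were well above background on all arrays, and Ptprc, Adgre1, Clec4f, Vsig4, C1qa and Tyrobp on none. The summed processed signal of that list was 379.6 with PA and ADSC medium, 555.1 with PA, 383.6 with ADSC medium and 392 in control. Such sums are not normalized, and the array with PA was the brightest, with a 75th percentile of 622 against 495 in control. On the same scale Cd14 was lowest in control (498). Of the genes listed as markers of adipose stromal cells or adipocytes, Pdgfra, Ly6a and Fabp4 stood higher on the same arrays as Cd14 and Pi16 was even. Their summed processed signal was 11830 with PA and ADSC medium, 7956 with PA, 12000 with ADSC medium and 7749 in control, and these 4 of the 9 were well above background on all arrays while Adipoq, Plin1, Dpp4, Lep and Cfd were on none. The part of either list's cells in the Cd14 result was not tested. In a total RNA sample, more cells of a type and more RNA per cell cannot be told apart.

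Ly96 (chromosome 1, between 16696289 and 16699561, where the 60 bases of the probe span an intron) followed the same order as Cd14 over a smaller span. It was at 10.86 with PA and ADSC medium, 10.47 with PA, 10.82 with ADSC medium and 10.60 in control. The largest difference was 0.39 ± 0.07, between both treatments and PA alone. The arrays with ADSC medium were again the 2 highest, but their gap of 0.05 and the gap of 0.13 between control and PA were within 2 SDs of the spots.

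Myd88 (chromosome 9, 119245322 to 119245381) was higher on both arrays with PA. It was at 11.25 ± 0.04 with PA and ADSC medium (8 spots), 11.19 ± 0.04 with PA (8 spots), 10.84 ± 0.06 with ADSC medium (9 spots) and 10.84 ± 0.04 in control (8 spots). PA differed by 0.41 ± 0.02 in the presence of ADSC medium and by 0.34 ± 0.02 without it, folds of 1.33 and 1.27. All spots on the arrays with PA were above all spots on the arrays without. ADSC medium differed by 0.06 ± 0.02 in the presence of PA, over 2 standard errors, and by 0.00 ± 0.02 without it.

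Of the feedback genes, Nfkbia, whose product IkB-alpha holds NF-kB in the cytoplasm and is itself induced by NF-kB, was highest with both treatments. It was at 13.23 with PA and ADSC medium, 12.83 with PA, 12.75 with ADSC medium and 12.73 in control (chromosome 12, between 56590945 and 56591440). The 3 lower levels lay within 2 SDs of their neighbours, and the level with both treatments was 0.41 ± 0.06 above that with PA, 1.33-fold. PA differed by 0.48 ± 0.06 in the presence of ADSC medium, against 0.09 ± 0.06 in its absence. No comparison of Nfkbia reached 1.5-fold.

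Nfkbiz encodes IkB-zeta, a nuclear relative of the inhibitors that in mouse macrophages is needed for the induction of a subset of NF-kB targets, Lcn2 among them. It was the gene that differed most in the presence of both treatments relative to control. Its level was 9.32 with PA and ADSC medium, 8.08 with PA, 8.53 with ADSC medium and 8.05 in control (chromosome 16, 55812091 to 55812150), or 646, 316, 340 and 247 as processed signals in that order. The array with both treatments stood apart, and PA alone lay within 2 SDs of control. Added to PA, ADSC medium went with a 2.36-fold higher level of Nfkbiz (1.24 ± 0.07), and without PA with a 1.39-fold higher one (0.48 ± 0.08). PA differed by 0.79 ± 0.07 in the presence of ADSC medium and by 0.03 ± 0.08 without it.

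Tnfaip3, whose product A20 is a ubiquitin-editing inhibitor of the same pathway, was even over the arrays. It was at 8.57 with PA and ADSC medium, 8.57 with PA, 8.64 with ADSC medium and 8.53 in control (chromosome 10, 18720994 to 18721053). The span was 0.11, and no neighbours in level differed by over 2 SDs of the spots. The smallest gap, 0.01, was between PA with and without ADSC medium.

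The secreted targets were dim. Lcn2, which encodes the iron-siderophore binding protein lipocalin 2, was at 4.50 with PA and ADSC medium, 4.47 with PA, 4.34 with ADSC medium and 3.91 in control, from processed signals of 23.4, 24.8, 18.8 and 14.0. All 3 treated arrays were above control, by 0.59, 0.56 and 0.43 in that order, each with a spot SD of 0.23, and no gap between neighbours exceeded 2 SDs. With normexp background correction, which compresses dim signals, these differences were 0.11, 0.10 and 0.07.

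Saa3 encodes an acute-phase apolipoprotein that mouse adipose tissue, macrophages and other cells make in inflammation. It was at 5.06 with PA and ADSC medium, 5.26 with PA, 3.33 with ADSC medium and 4.18 in control, from processed signals of 33.8, 43.2, 9.47 and 16.9 in that order. Both arrays with PA were above both without it. PA differed by 1.73 ± 0.18 in the presence of ADSC medium, 3.32-fold, and by 1.08 ± 0.18 without it, 2.12-fold. ADSC medium without PA went with a level 1.80-fold lower (-0.85 ± 0.23), whereas in the presence of PA the difference was -0.20 ± 0.12, within 2 SDs of the spots. With normexp the PA differences were 0.36 and 0.32, and those of the medium -0.14 without PA and -0.10 with it, in each case the same direction.

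The probes of both secreted targets are shown because they set what was measured as Lcn2 and Saa3, and serum amyloid A genes are close relatives. The Lcn2 probe lies on chromosome 2 between 32241037 and 32241281 and spans an intron, and the Saa3 probe on chromosome 7, 53968031 to 53968090 (mm9, minus strand); both are written 5′ to 3′ as the array files give them.
Lcn2: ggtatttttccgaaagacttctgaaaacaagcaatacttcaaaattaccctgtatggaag
Saa3: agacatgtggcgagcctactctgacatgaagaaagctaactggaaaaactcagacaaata
How the Saa3 probe binds transcripts of its relatives was not tested. The relatives Saa1 and Saa2 are measured by their own probes. Saa1 was at 7.67 with PA and ADSC medium, 7.44 with PA, 7.55 with ADSC medium and 7.52 in control, and Saa2 at 3.31, 2.57, 2.93 and 2.91 in the same order, 1.67-fold higher with both treatments than with PA. Saa2 was dimmer than Saa3 on every array. No error was computed for its fold, and a single spot had an SD of 0.287 at levels under 3. The authors' deposited list of 1580 probes higher with PA than in control held the probes of Saa3 and Lcn2 and no other member. Their list of 920 probes higher with PA than with PA and ADSC medium held none. The lists hold 3.84% and 2.24% of the probes.

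Counted at 1.5-fold, few of the 10 genes differed with PA alone. Against control, 1 was higher (Saa3), none was lower and 9 were neither. Over all 18209 genes compared, 2.92% were as much higher and 3.27% as much lower. At 2-fold Saa3 was still counted, where 1.09% of all genes were higher and 0.599% lower, but with normexp, at 0.32, it was not and 0 genes were left. The median difference of the 10 was 0.04, beside -0.01 over all genes. With ADSC medium alone, Cd14 was higher, Saa3 was lower and 8 were neither, where 2.31% of 18198 genes were higher and 1.29% lower. At 2-fold neither was counted, where 0.533% of all genes were higher and 0.121% lower, and with normexp Saa3, at -0.14, was not counted at 1.5-fold. The median was 0.15, beside -0.01 over all genes.

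With both treatments against control, 4 of the 10 were at least 1.5-fold higher, Nfkbiz at 2.40-fold, Cd14 at 2.05-fold, Saa3 at 1.84-fold and Lcn2 just past 1.5-fold, and none was lower. Over all 18251 genes compared, 4.68% were as much higher and 3.67% lower. At 2-fold Nfkbiz and Cd14 were left, where 1.81% of all genes were higher and 0.422% lower, and with normexp the same 2 genes were left at 1.5-fold. The median of the 10 was 0.45, beside -0.02 over all genes. Lcn2 lay just inside the threshold and Nfkbia, at 1.41-fold, was the nearest outside. Without Lcn2 and Saa3, the dim genes, 2 were left.

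Set against PA alone, PA and ADSC medium went with at least 1.5-fold higher levels of 2 genes, Cd14 and Nfkbiz, and with lower levels of none. Of 18751 genes compared, 5.25% were higher by 1.5-fold and 3.72% lower. Higher genes made 58.5% of all those past 1.5-fold, and 70.7% with scaling to the 75th percentile. Both genes were also past 2-fold, where 1.75% of all genes were higher and 0.507% lower. The median of the 10 was 0.17, beside -0.02. Set against ADSC medium alone, PA and ADSC medium went with higher levels of 2 genes, Nfkbiz and Saa3, and lower levels of none, where 3.54% of 18465 genes were higher and 3.14% lower. At 2-fold Saa3 was left, where 1.26% of all genes were higher and 0.477% lower, whereas with normexp Nfkbiz was left at 1.5-fold and Saa3, at 0.36, was not. The median was 0.27, beside -0.02. These comparisons share arrays with those against control and are not independent of them.

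The effect of PA was then compared between cells with and without ADSC medium, from 4 separate arrays. For Tlr2 and Cd14, PA went with differences in opposite directions on the 2 backgrounds, each over 2 times its error from the spots. For Tlr2 that error is a standard error of spot means, and the difference of -0.08 without the medium was near the SD of single spots (0.07). The signs also differed for Ly96 and Tnfaip3, but there at least 1 of the differences lay within 2 SDs. The PA difference with ADSC medium minus that without was 0.76 ± 0.11 for Nfkbiz, 0.65 ± 0.26 for Saa3, 0.58 ± 0.10 for Cd14, 0.39 ± 0.08 for Nfkbia and 0.31 ± 0.04 for Tlr2. It was -0.40 ± 0.33 for Lcn2, and between -0.12 and 0.18 for Tlr4, Ly96, Myd88 and Tnfaip3. Nfkbiz and Saa3 were past 1.5-fold, 2 of 10, where 6.71% of the 17355 genes well above background on all arrays were. With normexp, Saa3 was at 0.04 and Nfkbiz at 0.72. Whether these differences exceed the spread between cultures was not tested.

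By pattern over the 4 arrays, each gene's levels minus their mean, the genes nearest to Cd14 among 17345 were Rgs2, 1700001F09Rik, Gfod1, TC1646491 and Ampd3, at root mean square distances of 0.054 to 0.073. Rgs2, which encodes a regulator of G protein signalling, was at 1.33 with PA and ADSC medium against PA. Nearest to Nfkbiz were Lrmp, Alcam, AK037854, Ccbe1 and Mycn (0.048 to 0.080). Alcam, a cell adhesion gene, was at 1.12 with both treatments against control, and Mycn, a transcription factor gene, at 1.16. Nearest to Saa3 were Prr32, Ddx58, Taf7l, NAP000727-001 and Irgm1, at larger distances of 0.142 to 0.192. Ddx58, which encodes the RNA sensor RIG-I, and Irgm1, an interferon-inducible GTPase gene, were at 1.58 and 1.56 with PA and ADSC medium against ADSC medium, and at -0.46 and -0.32 with ADSC medium against control. The neighbours were picked for matching these levels, so their similar differences follow from that choice. Whether any of them shares a regulator with Saa3, which is dim, or with Cd14 or Nfkbiz was not tested. The other members spanned less than 1 log2 unit and were not ranked.

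The rest of the pathway was followed through 75 further genes in 5 lists, of which 72 were on the array. At 1.5-fold, 3 of the 62 with a value were higher with PA than in control and 1 lower (median 0.07). Over all genes 2.92% were higher and 3.27% lower. With ADSC medium, 2 of 64 were higher and 1 lower (median 0.00), beside 2.31% and 1.29% of all genes. With both treatments, 6 of 64 were higher than control and 3 lower (median 0.07), beside 4.68% and 3.67%. Against PA alone, 7 of 64 were higher with both and 2 lower (median -0.04), beside 5.25% and 3.72%. Against ADSC medium alone, 4 were higher and 1 lower (median 0.03), beside 3.54% and 3.14%.

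Among the other Toll-like receptor genes, Tlr3, the sensor of double-stranded RNA, stood out. It was at 7.78 with PA and ADSC medium, 8.14 with PA, 6.14 with ADSC medium and 6.14 in control, so PA went with a 3.12-fold higher level in cells with the medium, and the gap between PA alone and control was larger. Tlr7, a sensor of single-stranded RNA, was at 3.78, 2.16, 2.92 and 2.02 in that order and not well above background in control. Set against the lowest level well above background there, it was 2.55-fold higher with both treatments, the spread between spots left aside. Tlr6, a partner of TLR2, was lower with both treatments than in control (-0.74), as was the flagellin receptor gene Tlr5 (-0.77), while Tlr1 (-0.24) and Tlr9 (-0.07) were neither. Lbp, whose product carries lipopolysaccharide to CD14, was higher with ADSC medium, by 1.54-fold on top of PA and by 1.57-fold without it. Tlr8, Cd180 and Ly86 were not well above background on any array.

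None of the 18 measured adaptors, kinases and ligases differed by 1.5-fold in any comparison. Irak2 was at -0.51 with PA against control and Rnf31, a subunit of the linear ubiquitin ligase, at 0.52. Of the 5 NF-kB subunit genes only Relb passed, 1.58-fold higher with PA, with Nfkb2 at 0.38, Rela at 0.29, Nfkb1 at 0.03 and Rel at -0.23.

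Of 21 measured feedback genes besides the members, none differed by 1.5-fold with PA alone or ADSC medium alone. With both treatments against control, Traf1, an adaptor induced by NF-kB, was 1.83-fold higher, at 7.71 with both, 7.22 with PA, 6.89 with ADSC medium and 6.84 in control. Zc3h12a, whose product Regnase-1 degrades inflammatory transcripts, was 1.66-fold higher, at 6.88, 6.34, 6.57 and 6.15 in that order. Dusp1, a phosphatase of MAP kinases, was 1.76-fold higher with both treatments than with PA. The remaining inhibitor genes Nfkbib, Nfkbie and Nfkbid were at 0.04, -0.14 and 0.49 with both treatments against control.

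Of 15 other acute-phase genes, 13 were well above background on 1 array or more. Hp, which encodes the haemoglobin-binding protein haptoglobin, was well above background only on the arrays with ADSC medium, at 4.58 with PA and ADSC medium and 4.75 with ADSC medium. As bounds, it was 5.68-fold higher with both treatments than with PA, and 5.02-fold higher with ADSC medium than in control. The dim levels, 2.0 with PA and 2.41 in control, had been raised only to 2.07 and 2.43. These bounds leave out the spread between spots, and a single spot had an SD of 0.287 at levels under 3. C3, the central complement gene, went with PA, at 9.35 with both, 9.24 with PA, 8.32 with ADSC medium and 8.40 in control. Ptx3, a pentraxin gene, was lower with ADSC medium, by 1.76-fold in the presence of PA and 1.56-fold without, and Cp, the ceruloplasmin gene, was 1.60-fold lower with PA and 1.82-fold higher when ADSC medium was added to PA. In that comparison Orm2, an orosomucoid gene, was just past 1.5-fold higher (0.59).

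**Figure D3:**
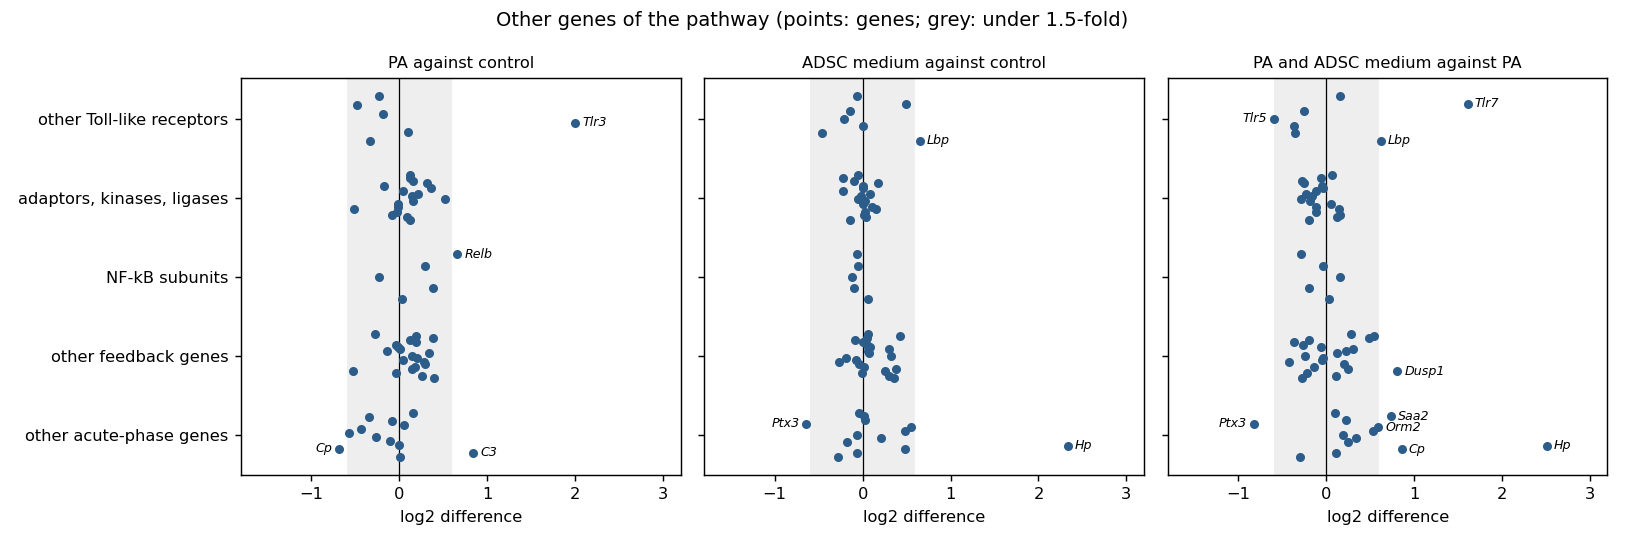
Log2 difference (horizontal axis) of the other pathway genes in 3 comparisons, by list; each point is a gene with a value, grey covers differences under 1.5-fold, and genes outside it are named. Tlr3 stands highest with PA, and Hp, a bound that leaves out the spread between spots, with ADSC medium.

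Start-site sequences were read for the members because the group is defined by NF-kB. The RefSeq table (GRCm38.p6) held windows for 6 of the 10 genes, 7 in all with a pair for Tnfaip3; Tlr4, Cd14, Ly96 and Nfkbiz were not in it. The 250 bases before each start were searched on both strands. Matches to the NF-kB consensus, shown in capitals, were found for 3 genes, in 3 of the 7 windows, where 7.28% of 32536 windows of that length hold at least 1. Tlr2 had a pair that overlap by all but 1 base, 173 to 163 bases before the start. Nfkbia had 1, 29 to 20 bases before it, and the second Tnfaip3 window had 2, at 125 to 116 and 12 to 3 bases. The windows are given 5′ to 3′ on the gene's strand, which is minus for all, at chr3:83841609-83841858, chr12:55492648-55492897 and chr10:19015411-19015660.
Tlr2: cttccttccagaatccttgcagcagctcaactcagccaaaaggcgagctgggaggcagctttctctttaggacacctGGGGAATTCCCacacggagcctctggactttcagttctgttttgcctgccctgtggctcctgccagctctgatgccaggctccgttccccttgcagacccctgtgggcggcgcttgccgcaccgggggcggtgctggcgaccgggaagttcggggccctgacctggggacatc
Nfkbia: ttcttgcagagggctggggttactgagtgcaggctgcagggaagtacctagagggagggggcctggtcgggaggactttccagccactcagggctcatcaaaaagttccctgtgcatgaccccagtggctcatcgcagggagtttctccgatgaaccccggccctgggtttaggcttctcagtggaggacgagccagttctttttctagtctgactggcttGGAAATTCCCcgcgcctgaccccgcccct
Tnfaip3: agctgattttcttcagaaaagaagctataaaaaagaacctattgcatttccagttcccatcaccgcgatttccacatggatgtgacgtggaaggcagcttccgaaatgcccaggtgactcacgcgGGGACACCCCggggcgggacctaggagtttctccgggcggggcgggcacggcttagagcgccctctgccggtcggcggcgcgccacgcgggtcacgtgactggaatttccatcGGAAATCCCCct
These 3 genes, with matches, differed by less than 1.5-fold in every comparison, as did Myd88, whose window held none. Cd14 and Nfkbiz had no window, so matches and differences in level cannot be set against each other. The members were picked as genes of this pathway, so their matches are no test of it.

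Lcn2 and Saa3 had no match to the consensus in this window, and Saa3 is shown for comparison because it differed most between single arrays, with the other motifs found in it left in lower case (chr7:46715677-46715926, minus strand).
Saa3: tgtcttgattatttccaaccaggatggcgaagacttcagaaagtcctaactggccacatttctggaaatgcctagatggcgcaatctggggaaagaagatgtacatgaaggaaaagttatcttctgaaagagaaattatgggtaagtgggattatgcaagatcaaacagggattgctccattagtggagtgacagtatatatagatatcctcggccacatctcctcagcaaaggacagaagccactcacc
It held a match to the interferon response element core, GAAA, any 2 bases and GAAA again, 125 to 116 bases before the start, and to the C/EBP element TTGCNNAA, 99 to 92 bases before it. Of all windows, 2.98% hold the interferon element core and 9.57% the C/EBP element. Myd88 held the same interferon element core at 40 to 31 bases, and Lcn2 a C/EBP element at 216 to 209 bases. Neither of these overlapped another motif searched, which also included the AP-1 element TGANTCA (6.73% of windows, 1 member window) and the TATA box TATAAA (12.3%, 2 member windows). A match is a description of letters and not a binding site.

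**Figure D4:**
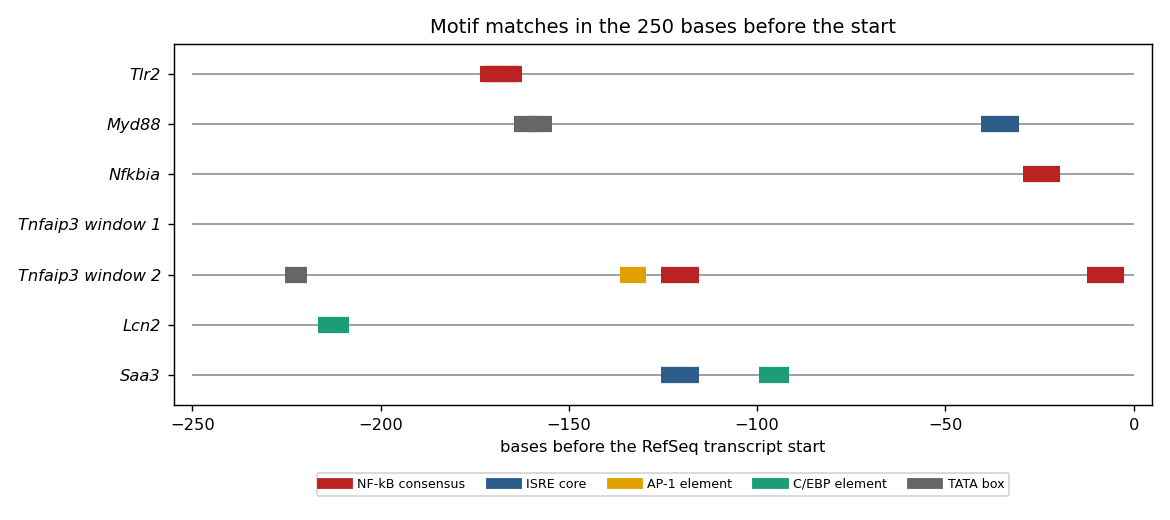
Matches to 5 motifs (coloured blocks, to scale) in the 250 bases before the RefSeq start of 6 genes, 7 windows; the horizontal axis gives the bases before the start. NF-kB consensus matches lie in the Tlr2, Nfkbia and second Tnfaip3 windows, and interferon element cores in those of Myd88 and Saa3.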

How the data were processed

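Total RNA of 4 cultures was hybridized to Agilent design 014868, 1 array each, and read with Feature Extraction 12.1.1.1, per the file headers. The deposited intensity read here was the processed signal, which Feature Extraction corrects for background on each array alone, per the file headers. Quantile normalization came later, per the series' design text, in R 3.5.1, per the submitters' processing notes. Lists of probe names, 2 in all, were deposited as well.

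Control spots and 82 to 104 outlier spots per array were left out and log2 intensities were averaged per probe. Then 41146 probes were quantile-normalized (limma 3.58.1, R 4.3.3, followed by Python 3.11.15 with pandas 2.3.3). The normalization was tested on simulated arrays with changes in brighter probes only, so levels as dim as those of Lcn2 and Saa3 were not covered. RefSeq accessions named 28680 probes. A gene was read by its probe with the highest mean. Where only 1 of 2 arrays was well above background (flag on over 50% of spots), the dim value was raised to the lowest level well above background there (2.07 to 2.43). This gave a bound that leaves out the spread between spots. Genes of the pathway lists were named where they passed 1.5-fold, up to 4 of the largest per list and comparison, with further ones (Orm2 and genes that did not pass) chosen after their values were seen, and for members spanning at least 1 log2 unit the 5 nearest patterns. Members and lists were chosen with earlier results of these data known. Alternatives were 75th percentile scaling, normexp (offset 50), the mean of detected probes, no filter, detection on both arrays, a 2-fold threshold and outlier spots kept.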

Additional observations from a re-analysis of the deposited data

Results flagged for a closer look

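Cd14 stands out because PA went with a difference of 0.30 in the presence of ADSC medium and of -0.27 without it, opposite directions, each over 2 SDs of the spots. The difference between the effects was 0.58. Tlr2 is listed for opposite directions as well, each over 2 standard errors of spot means. PA was at 0.23 in the presence of ADSC medium and -0.08 without it, and the medium at 0.19 in the presence of PA and -0.12 without it. The difference between the effects is 0.31 both ways, since it is the same sum of 4 arrays. With 1 array per condition neither was tested.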

How the results depend on the processing

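Of 340 values of single genes under other settings, 315 moved by less than their error from the spots and 25 by more. None took the opposite sign, and Myd88 with ADSC medium alone lay between -0.02 and 0.02. Values without a filter (50), with detection on both arrays (50) and from the mean of detected probes (60) could not move. The reason is that each member had a single detected probe, well above background on every array. With normexp 24 values moved by more than that error and 36 did not. Only Lcn2 and Saa3 had a difference past 1.5-fold that moved by over 1.5 times, with normexp, which adds an offset that compresses dim signals. With normexp the counts of members became 0 higher with PA, 0 lower with ADSC medium, 2 higher with both against control and 1 higher with both against ADSC medium. At 2-fold they became 0 higher and 0 lower with ADSC medium, 2 higher with both against control and 1 higher with both against ADSC medium. The other counts were within 1.5 times the reported ones. Over all genes normexp gave 221 higher and 164 lower with PA (in place of 532 and 596), 106 and 21 with ADSC medium (420 and 234), 381 and 143 with both (855 and 670), 344 and 101 with both against PA (985 and 698) and 248 and 143 with both against ADSC medium (653 and 579). No paired analysis was possible because each group has 1 array, so that no replicate was left out. Signal over background limits Lcn2 and Saa3.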
